A study of Mus musculus with 10 samples.

Results

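The genes examined here mark neural progenitor cells, the dividing cells of the embryonic neural tube from which neurons and glia arise. They are the basic helix-loop-helix genes Olig1 and Olig2, the Sox genes Sox1, Sox2, Sox3 and Sox9, the paired-box gene Pax6, the homeobox genes Nkx2-2 and Nkx6-2, and Nes, which encodes the intermediate filament protein nestin. They were taken by name, with every probe that carries one of the 10 symbols in the platform annotation. Of the 10 genes, 9 had a probe, and these 9 were measured by 12 of the 25697 probes on the array. The annotation used lists no probe under Nkx6-2, which was not analysed here. Olig1, Nes, Sox2 and Sox9 passed the detection filter described below, which makes 4 of the 8967 named genes that could be tested.

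The cells were mouse motor neurons that carried an Hb9::GFP transgene, in which regulatory DNA of the motor neuron gene Hb9 (Mnx1) drives green fluorescent protein, and they were sorted by that fluorescence before RNA was hybridised to Illumina MouseRef-8 bead arrays. Embryonic motor neurons were dissected from the spinal cord at E13.5 on a C57BL/6 background. ES-derived motor neurons were differentiated from V6.5, a single mouse embryonic stem cell line carrying the transgene. Induced motor neurons came from transgenic embryonic fibroblasts on a C57BL/6 background in which 10 transcription factors were overexpressed, and the labels do not name these factors. Each origin was split into a GFP-high and a GFP-medium gate, with 2 arrays per gate for embryonic and ES-derived cells and 1 array per gate for induced cells, so 10 arrays in 6 groups. All RNA was amplified in consecutive rounds before labelling. The labels do not say whether embryos were pooled or whether replicates came from separate animals or cultures, so the spread between arrays may be technical.

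Motor neurons of the ventral spinal cord arise from a progenitor domain that expresses Olig2. Sonic hedgehog from the floor plate sets up this domain by way of homeobox and paired-box factors that repress each other, with Nkx2-2 marking the neighbouring ventral domain, Nkx6 factors the ventral tube and Pax6 the more dorsal and intermediate progenitors. Sox1, Sox2 and Sox3 hold progenitors in an undifferentiated state, Sox9 acts in the switch from neuron to glia production, and nestin fills the processes of radial progenitors. After a progenitor leaves the cell cycle and becomes a neuron, these genes are mostly shut down, while Olig1 and Olig2 are used again in oligodendrocyte precursors.

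The labelled cell type was checked on motor neuron genes. Isl1, a motor neuron transcription factor, was detected on 4 embryonic, 4 ES-derived and 2 induced arrays, and Chat, the enzyme that makes acetylcholine, on 4, 3 and 2. Lhx3, also a motor neuron factor, was detected on 1, 2 and 0 arrays. The probe of Mnx1, whose regulatory DNA drives the reporter that all cells were sorted on, was detected on 0 embryonic, 0 ES-derived and 2 induced arrays, so a probe that is not detected does not show that its transcript was absent. Whether Isl1, Lhx3 or Mnx1 were among the introduced factors is not stated in the labels. Their probes therefore cannot check the cell type of the induced cells.

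The arrays differed in brightness, and 1 array limits what can be said of weak genes. Here a probe counts as detected when its deposited detection p-value, which compares it with the array's background, is under 0.01. Between 6921 and 11441 probes were detected on 9 arrays, against 2095 on ES-derived GFP-high replicate 1, whose mean deposited intensity was 3.16 where the others lay between 51.3 and 577. None of the 12 progenitor probes was detected on that array. The lowest level at which any probe was detected there was 8.68 on the log2 normalised scale, and on the other arrays it was 4.69 to 5.68, so that array gives only an upper limit for most of these genes. Comparisons were therefore repeated with this array left out, and again with the 3 dimmest left out, which also drops the first GFP-medium replicate of the embryonic and of the ES-derived cells.

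Olig2, Sox1, Sox3, Pax6 and Nkx2-2 were not detected on any of the 10 arrays, in any origin or gate. Across all probes of the array, 46.5% were likewise detected on no array. The 6 probes of these genes had deposited intensities from -11.5 to 13.4, in a table where the lowest intensity of any detected probe ranged from 8.97 to 32.2 between arrays. Values at or below 0 arise because the deposited intensities had background subtracted.

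Sox1 came closest to detection among these genes, with 13.4 and a detection p-value of 0.039 on embryonic GFP-medium replicate 2. The Olig2 probe, which reads the gene that defines the motor neuron progenitor domain, ranged from -6.73 to 7, with its lowest detection p-value of 0.0653 on ES-derived GFP-medium replicate 1. The lowest detection p-value of Pax6 was 0.17, that of Sox3 was 0.17, and those of the Nkx2-2 probes were 0.108 and 0.121. None of these genes was detectable at this signal, which does not show that they were silent. Whether Olig2, Sox1 or Pax6 were among the introduced factors is not stated in the labels, and their probes were detected on 0 of the 2 induced arrays.

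**Figure D1:**
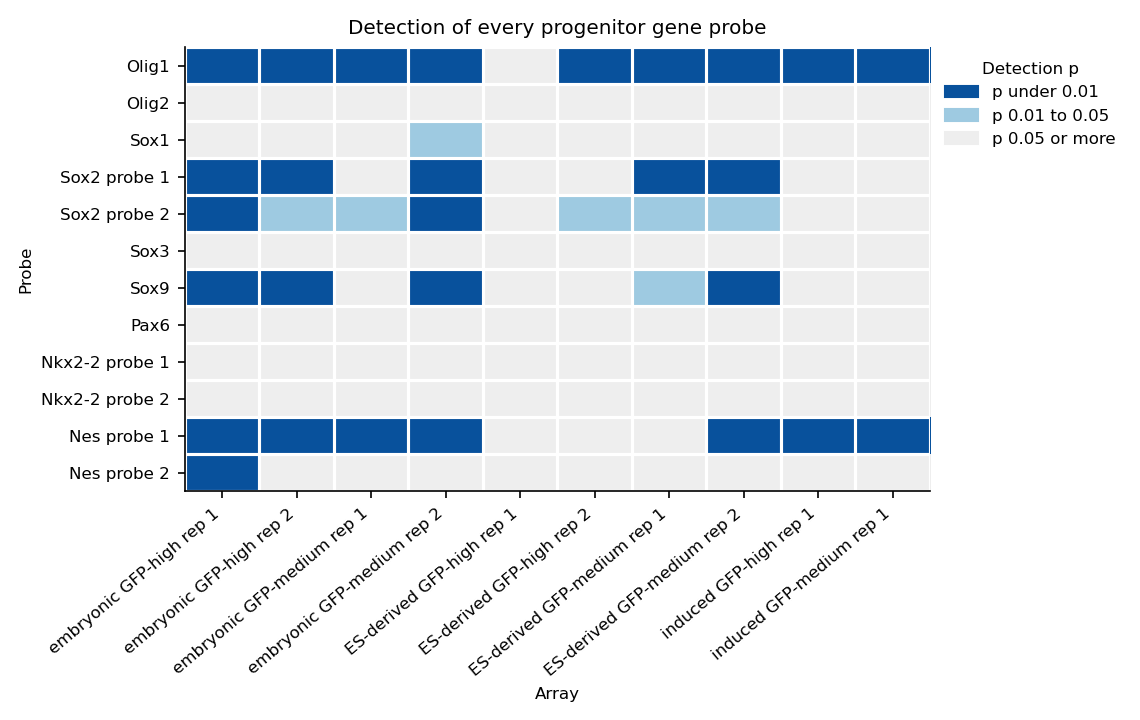
Detection of each of the 12 probes (rows) on each of the 10 arrays (columns), coloured by class of detection p-value: under 0.01 (dark blue), from 0.01 to 0.05 (light blue) and 0.05 or more (grey). Olig1 was detected on 9 arrays, the first Nes probe on 7, the first Sox2 probe on 5 and Sox9 on 4, while Olig2, Sox1, Sox3, Pax6 and Nkx2-2 were detected on none.

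Olig1 was detected more widely than any other of these genes, on 9 of the 10 arrays, and it was brightest in ES-derived GFP-medium cells. Olig1 lies next to Olig2, with 0 annotated genes between them in the GRCm38.p6 RefSeq annotation, and both encode factors of oligodendrocyte development. The deposited Olig1 intensities were 201 and 79.4 in embryonic GFP-high replicates 1 and 2, and 26.7 and 102 in the GFP-medium ones. In ES-derived cells they were 5.86 (not detected) and 1178 in the GFP-high gate, with 225 and 9343 in the GFP-medium gate. In induced cells they were 240 for GFP-high and 148 for GFP-medium. These values are not scaled between arrays, so the comparisons that follow use log2 values after background correction and quantile normalisation.

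On that scale the embryonic Olig1 levels were 6.20 and 5.99 in the GFP-high gate, with 6.97 and 5.91 in the GFP-medium gate. The ES-derived GFP-high levels were 6.40 and 8.51, those of ES-derived GFP-medium cells were 9.15 and 11.20, and the induced levels were 8.15 and 7.89 for GFP-high and GFP-medium. The single ES-derived value inside the embryonic range is the one on the dim array, where the gene was not detected. Ordered by mean, the groups ran from embryonic GFP-high (6.09 ± 0.15, SD, n = 2) and embryonic GFP-medium (6.44 ± 0.75, n = 2) through ES-derived GFP-high (7.45 ± 1.49, n = 2), induced GFP-medium (7.89) and induced GFP-high (8.15) to ES-derived GFP-medium (10.17 ± 1.45, n = 2). The embryonic gates overlapped, the range of ES-derived GFP-high cells took in both induced values, and the ES-derived GFP-medium arrays lay above all others.

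With all 10 arrays Olig1 stood 2.55 ± 0.74 (SE) higher on the log2 scale in ES-derived than in embryonic cells, with a 95% interval from 0.88 to 4.21, and was not called (limma adjusted p = 0.194). In that comparison 0 of the 4 tested genes were called, against 0.899% of all 9679 features. Without ES-derived GFP-high replicate 1 the difference was 3.55 ± 0.59 (11.7-fold) and Olig1 was called higher (adjusted p = 0.0164), where 2.85% of features were called. The 3 ES-derived arrays left had levels of 8.94, 9.64 and 11.81 after renormalisation and the 4 embryonic ones 6.08 to 7.25, without overlap, as for 8.17% of features in that direction. Without the 3 dimmest arrays Olig1 rose by 4.24 ± 0.69 (18.8-fold, adjusted p = 0.0173), where 4.20% of features were called, and this rests on 2 ES-derived arrays. None of Nes, Sox2 and Sox9 was called under either choice.

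Induced cells stood 1.76 ± 0.91 above embryonic cells for Olig1 (interval -0.28 to 3.80, adjusted p = 0.50). Both induced arrays were above all 4 embryonic arrays, as for 20.3% of all features in that direction. With all arrays 0 of the 4 tested genes were called in this comparison, against 1.27% of features. The same held without the dim array, with 1.94 ± 0.66 for Olig1 (adjusted p = 0.119, 6.72% of features called), and without the 3 dimmest arrays, with 2.27 ± 0.69 (adjusted p = 0.0615, 17% of features called). Induced against ES-derived cells gave -0.79 ± 0.91 (interval -2.83 to 1.25, adjusted p = 0.791), with 0 of 4 genes and 0.806% of features called. Without the dim array this Olig1 difference was -1.61 ± 0.71 (adjusted p = 0.226), and without the 3 dimmest arrays -1.96 ± 0.75 (adjusted p = 0.13). The induced values rest on 2 arrays.

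**Figure D2:**
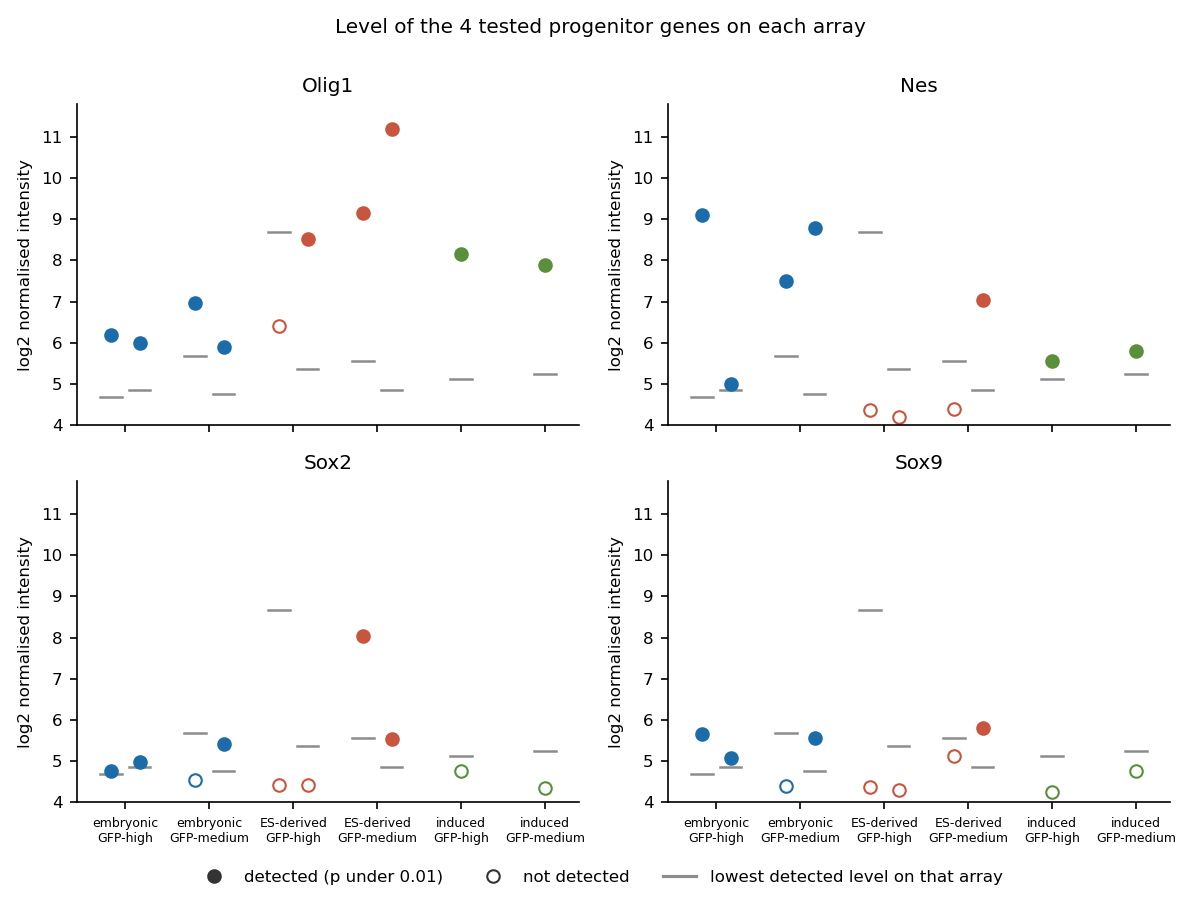
Level of Olig1, Nes, Sox2 and Sox9 on each of the 10 arrays (vertical axis, log2 normalised intensity) by group (horizontal axis); each point is 1 array, filled where the probe was detected, and the grey line (at the same horizontal position) is the lowest level at which any probe was detected on that array. Olig1 was detected everywhere except on ES-derived GFP-high replicate 1, whose detection limit of 8.68 lies far above those of the other arrays.

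Olig1 also marks oligodendrocyte precursors, so genes of that lineage were read on the same arrays. Of 7 listed genes 5 had a probe and 3 could be tested. Pdgfra, a growth factor receptor of oligodendrocyte precursors that mesenchymal cells carry too, fell in ES-derived cells (-4.40 ± 0.71, adjusted p = 0.0234) and in induced cells (-5.63 ± 0.87, adjusted p = 0.0161) against embryonic cells. Of all features 0.899% and 1.27% were called in these comparisons. Pdgfra was detected on 4 embryonic, 3 ES-derived and 1 induced array, so its sizes rest in part on upper limits. Mbp, a myelin protein gene, stood at 1.62 ± 0.44 in ES-derived against embryonic cells (adjusted p = 0.164), and Cnp, a myelin enzyme gene, at 0.21 ± 0.61 (adjusted p = 0.934). The precursor gene Cspg4 and the myelin gene Mog were detected on no array. The summed normalised intensity of the 3 tested genes was 1381 to 2520 on embryonic, 371 to 618 on ES-derived and 182 to 194 on induced arrays. Pdgfra had the highest mean level of the 3 and the others did not share its direction in ES-derived cells, where the list median was 0.21 beside -0.13 over all features. Their part in the Olig1 values was not tested. In sorted bulk cells, fewer cells of a type and less RNA per cell cannot be told apart.

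Nes went the other way, with its higher levels in embryonic cells, but the embryonic arrays disagreed among themselves. The brighter of its probes had deposited intensities of 1867 and 18.9 in embryonic GFP-high replicates 1 and 2, and of 39.6 and 1080 in the GFP-medium ones. In ES-derived cells it was detected on 1 of 4 arrays, GFP-medium replicate 2, with an intensity of 404, and the other 3 arrays read between -19.1 and 0.642. The induced arrays read 20.5 and 19.3, both detected.

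The normalised Nes levels were 9.10 and 4.99 in embryonic GFP-high cells and 7.49 and 8.78 in embryonic GFP-medium cells. In ES-derived cells they were 4.38 and 4.20 in the GFP-high gate, with 4.40 and 7.03 in the GFP-medium gate, and in induced cells 5.56 for GFP-high and 5.79 for GFP-medium. Embryonic GFP-high replicate 2 thus lay below both induced arrays and below 1 ES-derived array. The values of the other 3 embryonic arrays lay above those of all arrays of the other origins. On ES-derived GFP-high replicate 1, however, Nes was not detected, and the limit of 8.68 there lies above the embryonic value of 7.49. By group mean the order was ES-derived GFP-high (4.29 ± 0.13, SD, n = 2, not detected), induced GFP-high (5.56), ES-derived GFP-medium (5.72 ± 1.86, n = 2), induced GFP-medium (5.79), embryonic GFP-high (7.05 ± 2.91, n = 2) and embryonic GFP-medium (8.13 ± 0.92, n = 2). The ranges of ES-derived GFP-medium and embryonic GFP-high cells held both induced values. Each induced group has 1 array and no spread, and the lower ES-derived GFP-medium value (4.40) was not detected. The order of these 4 neighbouring groups therefore cannot be settled.

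Nes stood 2.59 ± 0.88 lower in ES-derived than in embryonic cells on the log2 scale (difference -2.59, interval -4.56 to -0.61), which did not pass the adjustment over all features (adjusted p = 0.286). With each value that was not detected set to the lowest detected level of its array, the difference was -0.93, a setting chosen after the data were seen. Induced minus embryonic cells gave -1.92 ± 1.08 (interval -4.33 to 0.50, adjusted p = 0.553), and induced minus ES-derived cells 0.67 ± 1.08 (interval -1.75 to 3.09, adjusted p = 0.854). The last of these changed sign with undetected values at the limit (-0.99). The second Nes probe was detected only on embryonic GFP-high replicate 1, with an intensity of 20.4, which was also the array where the first probe was brightest. On embryonic GFP-medium replicate 2 the first probe read 1080, while the second read -3.42 and was not detected. The Nes differences thus rest on the first probe.

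Sox2 had no clear relation to origin, and its level was set apart on 1 ES-derived array. Its brighter probe was detected on 3 embryonic arrays (intensities of 25.6, 17.9 and 57.6), on the 2 ES-derived GFP-medium arrays (88.9 and 80.7) and on 0 induced arrays. The normalised levels were 4.77 and 4.97 in embryonic GFP-high, 4.53 and 5.41 in embryonic GFP-medium, 4.43 and 4.43 in ES-derived GFP-high, 8.05 and 5.53 in ES-derived GFP-medium, and 4.77 and 4.35 in induced GFP-high and GFP-medium cells. ES-derived GFP-medium replicate 1, at 8.05, had the highest value, and the remaining groups overlapped or lay at the detection limit. On ES-derived GFP-high replicate 1 the limit of 8.68 lies above 8.05, so these arrays cannot be told apart for Sox2.

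ES-derived minus embryonic cells gave 0.69 ± 0.67 for Sox2 (interval -0.82 to 2.21, adjusted p = 0.761), and without ES-derived GFP-medium replicate 1 the value was -0.17. Induced minus embryonic cells gave -0.36 ± 0.83 (interval -2.22 to 1.49, adjusted p = 0.953). Induced minus ES-derived cells gave -1.05 ± 0.83 (interval -2.91 to 0.80, adjusted p = 0.691), with the probe detected on 2 of the 4 ES-derived and 0 of the 2 induced arrays, and -0.20 ± 0.45 without ES-derived GFP-medium replicate 1. The second Sox2 probe was detected on 2 embryonic arrays and gave -0.10 ± 0.32 for ES-derived minus embryonic cells (adjusted p = 0.943 among 11915 probes). It read 7.94 on ES-derived GFP-medium replicate 1, with a detection p-value of 0.0477, so the probes did not both single out that array.

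Sox2 is a gene of pluripotent stem cells as well as of neural progenitors, and the summed level of pluripotency genes was highest on the same array. Of 12 listed pluripotency genes, all with a probe, 10 were detected on ES-derived GFP-medium replicate 1, and between 2 and 8 on the other 9 arrays. The summed normalised intensity of the 10 tested ones was 29040 on that array. It was 1331 to 3591 on the other ES-derived arrays, 441 to 751 on the embryonic and 504 to 548 on the induced arrays. Utf1, a pluripotency factor gene, was detected on no array. That array also had the lowest summed intensity of 7 motor neuron genes, 203 against 851 to 4450 on the others, and the highest of 11 cell cycle genes, 13157 against 2040 to 8810. The part of pluripotent cells in the Sox2 value was not tested. No pluripotency gene was called between ES-derived and embryonic cells with all arrays, where 0.899% of all features were called. The list median was 2.78 beside -0.13 over all features. Not all members were higher: Zfp42 stood at 0.01 ± 0.31, detected on 2 embryonic and 0 ES-derived arrays. Klf4 went the other way, at -0.78 ± 0.60, detected on 3 embryonic and 1 ES-derived array.

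**Figure D3:**
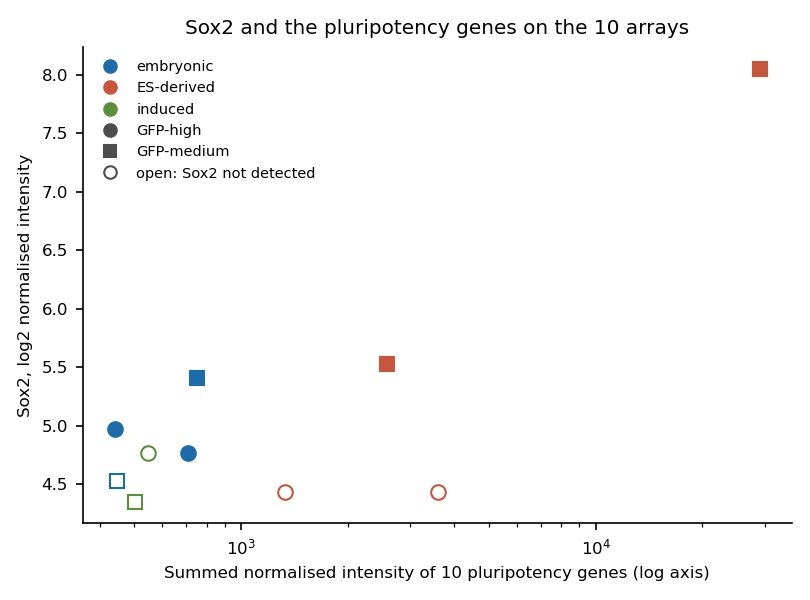
Sox2 level (vertical axis, log2 normalised intensity of its brighter probe) against the summed normalised intensity of 10 pluripotency genes (horizontal axis, log scale), 1 point per array; colour gives the origin, shape the gate, and open points are arrays where Sox2 was not detected. ES-derived GFP-medium replicate 1 stands alone at the upper right, at 8.05 and 29040, and the other ES-derived arrays are spread over Sox2 levels of 4.43 to 5.53.

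Sox9 was weak throughout. It was detected on 3 embryonic arrays, with intensities of 118 and 22.6 for GFP-high and 70.7 for GFP-medium replicate 2, on ES-derived GFP-medium replicate 2 with 115, and on 0 induced arrays. The normalised levels were 5.65 and 5.08 in embryonic GFP-high, 4.39 and 5.57 in embryonic GFP-medium, 4.36 and 4.31 in ES-derived GFP-high, 5.13 and 5.80 in ES-derived GFP-medium, and 4.26 and 4.75 in induced GFP-high and GFP-medium cells. The origins overlapped, and all values lay between 4.26 and 5.80. ES-derived minus embryonic cells gave -0.27 ± 0.44 (interval -1.25 to 0.71, adjusted p = 0.861), induced minus embryonic cells -0.67 ± 0.54 (interval -1.87 to 0.53, adjusted p = 0.732) and induced minus ES-derived cells -0.40 ± 0.54 (interval -1.60 to 0.80, adjusted p = 0.821). With undetected values at the limit, ES-derived minus embryonic cells gave 0.85, the opposite sign.

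**Figure D4:**
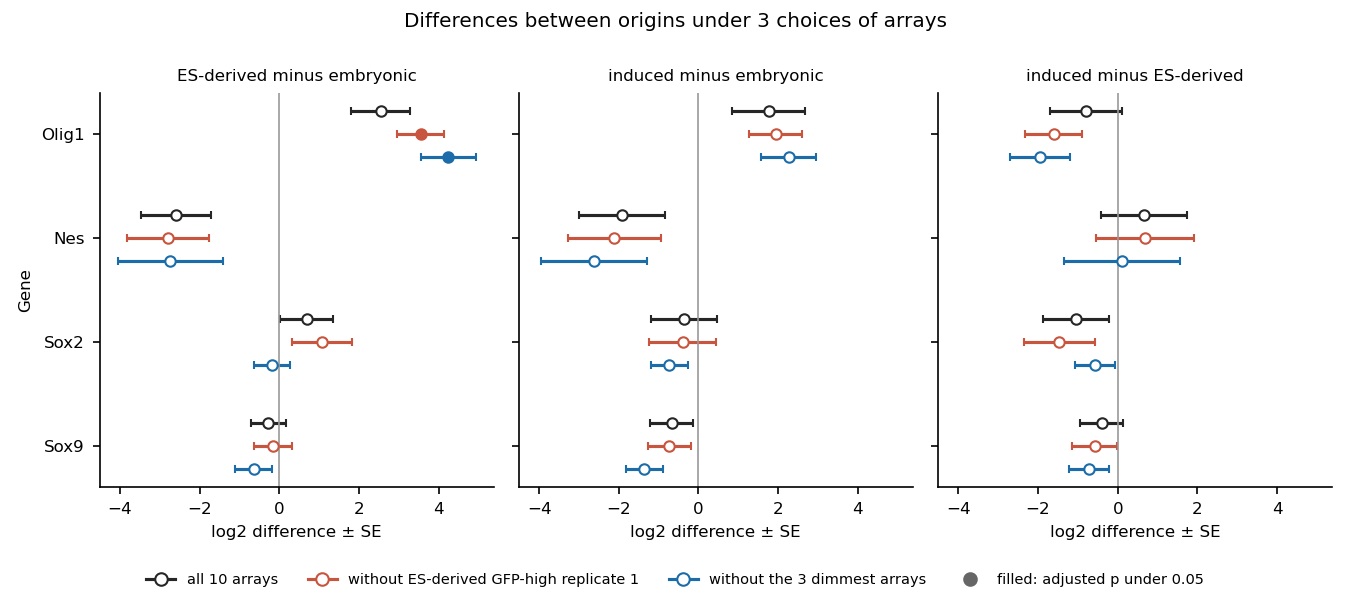
Difference between origins for Olig1, Nes, Sox2 and Sox9 (horizontal axis, log2 difference; bars, SE) with all 10 arrays (black), without ES-derived GFP-high replicate 1 (red) and without the 3 dimmest arrays (blue); filled points had an adjusted p under 0.05. The only filled points are those of Olig1 for ES-derived minus embryonic cells, at 3.55 and 4.24.

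The GFP gates were compared next, GFP-high minus GFP-medium over all origins. The brightness of the reporter reflects activity of the transgene and of the protein made from it, and progenitor genes were compared across it. No gene was called: 0 of the 4, and 0% of all 9679 features by limma, with 201 features at an unadjusted p under 0.05. The 4 genes all had lower means in the GFP-high gate, with -1.18 ± 0.66 for Olig1, -1.05 ± 0.79 for Nes, -0.90 ± 0.60 for Sox2 and -0.39 ± 0.39 for Sox9 (adjusted p = 0.962 for each). The median over all features was -0.06. The GFP-high gate holds the dim ES-derived array, where none of the 4 genes was detected. With undetected values at the limit of their array, GFP-high and GFP-medium means were 7.5 and 8.22 for Olig1 and 6.74 and 6.93 for Nes. They were 5.79 and 5.99 for Sox2 and 5.98 and 5.57 for Sox9, so the direction of Sox9 reversed. The second Sox2 probe gave -0.11 ± 0.29.

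Within the ES-derived cells the gates stood further apart than in the embryonic cells for Olig1 (-2.72 ± 0.94 against -0.35 ± 0.94) and the brighter Sox2 probe (-2.36 ± 0.84 against -0.10 ± 0.84), but the difference between origins was not called. That test gave -2.37 ± 1.33 for Olig1, -2.26 ± 1.19 for Sox2, -1.51 ± 0.87 for Sox9 and -0.34 ± 1.95 for Nes (adjusted p = 0.999 for each). It called 0% of features, with 156 at an unadjusted p under 0.05 by limma. The ES-derived GFP-high gate holds the dim array, where none of the 4 genes was detected. Without that array the Olig1 value was -1.40 ± 1.21 and the Sox2 value -2.49 ± 1.37. The Sox2 value rested on ES-derived GFP-medium replicate 1, without which it was 0.23 ± 0.96, and it was -0.73 ± 0.84 without the 3 dimmest arrays. For Olig1 the same settings gave -3.35 ± 1.36 and -3.05 ± 0.84. The second Sox2 probe gave -0.14 ± 0.54 in ES-derived and -0.20 ± 0.54 in embryonic cells with all arrays (origin dependence 0.06 ± 0.77). For Sox2 the wider ES-derived gap was thus seen with the brighter probe only.

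Other progenitor genes were read from lists that hold none of the 10 genes. Of 16 factors of spinal progenitor domains 9 could be tested, and 0 were called in any comparison of origins. Of all features 0.899% were called in ES-derived and 1.27% in induced against embryonic cells, and 0.806% in induced against ES-derived cells. In a list of this size 0 calls are near that share. The list median was 0.07 for ES-derived minus embryonic cells (all features -0.13) and -0.49 for induced minus embryonic cells (all features -0.02). Its members of highest mean level were Gbx2, a regional homeobox gene (-1.06 ± 1.38 in ES-derived and -1.94 ± 1.69 in induced against embryonic cells), and Irx3, a factor of intermediate progenitors (0.24 ± 0.76 and -2.77 ± 0.94, adjusted p = 0.229 for the latter). Dbx2, Pax3, Pax7, Foxa2, Msx2, Gsx1 and Gsx2, factors of other domains, were detected on no array. Among the 9 tested, Nkx6-1, an Nkx6 factor like Nkx6-2, was detected on 4 embryonic, 1 ES-derived and 0 induced arrays. Its differences from embryonic cells were -0.05 ± 0.86 in ES-derived and -1.17 ± 1.06 in induced cells. Nkx2-9 was detected on 0, 0 and 2 arrays, with differences of 0.07 ± 0.33 and 0.67 ± 0.41. Detection counts also depend on the brightness of the arrays.

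Of 9 further Sox genes 5 could be tested. Sox21, which counteracts Sox2-type factors in progenitors, fell in induced against ES-derived cells (-3.72 ± 0.69, adjusted p = 0.0471), and was detected on 4 embryonic, 4 ES-derived and 1 induced array. It was the only 1 of the 5 called in that comparison, where 0.806% of all features were called. Sox5, a SoxD gene of neural cells, stood at -2.78 ± 0.56 in induced against embryonic cells (adjusted p = 0.0502), and 0 of the 5 were called between ES-derived and embryonic cells. Sox4 and Sox6 were not detected.

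Of the Sonic hedgehog pathway 3 of 12 genes could be tested and 0 were called. For this list and the next ones, 0.899% of all features were called in ES-derived and 1.27% in induced against embryonic cells. In lists of this size 0 calls are near that share. The signal gene Shh and the effector genes Gli1 and Gli3 were detected on no array. The transducer gene Smo stood at -0.33 ± 0.57 in ES-derived and -0.62 ± 0.70 in induced against embryonic cells, and the hedgehog-binding inhibitor gene Hhip at -0.12 ± 0.31 and 0.42 ± 0.38. Of 14 Notch, Hes and Id genes, which act in keeping progenitors, 11 could be tested and 0 were called. Hes6, which favours differentiation, stood at -1.18 ± 0.59 and 0.49 ± 0.72 in the same order, and the receptor gene Notch1 at -0.68 ± 0.84 and -0.96 ± 1.03. Of 9 proneural and neuron-inducing factors 6 could be tested and 0 were called. Neurod1 stood at 0.01 ± 0.83 and 2.78 ± 1.01 (adjusted p = 0.269), and Myt1l at -0.10 ± 0.39 and -0.10 ± 0.47.

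Radial glia, the progenitor form that carries nestin, were read by 13 genes, of which 6 could be tested. In ES-derived against embryonic cells 2 fell: Slc1a3, the glutamate transporter of radial glia (-3.68 ± 0.51, adjusted p = 0.0103), and Nfib, a nuclear factor of gliogenesis (-1.98 ± 0.33, adjusted p = 0.0274), where 0.899% of all features were called and most of those were lower. The other 4 were not called and lay between -0.65 (Vim) and 0.41 (Msi2), with a list median of -0.62 beside -0.13 over all features. Nfib rose in induced cells, by 2.07 ± 0.41 against embryonic (adjusted p = 0.0456) and 4.05 ± 0.41 against ES-derived cells (adjusted p = 0.00261), and it was detected on 4 embryonic, 0 ES-derived and 2 induced arrays. Of all features 1.27% and 0.806% were called in these comparisons. No ES-derived Nfib value was detected, so the sizes and p-values of -1.98 and 4.05 rest on upper limits. On ES-derived GFP-high replicate 1 that limit was 8.68. Slc1a3 stood at -3.09 ± 0.63 in induced against embryonic cells (adjusted p = 0.0516). The summed normalised intensity of the 6 genes was 1118 to 1271 on embryonic, 238 to 443 on ES-derived and 608 to 687 on induced arrays. Prom1, Msi1, Gfap, S100b, Hopx and Nfia were detected on no array. The part of radial glia in the Nes values was not tested.

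Among intermediate filament genes, the family of Nes, 7 of 9 could be tested and 0 were called. Beside this list and the next, 0.899% of all features were called in ES-derived and 1.27% in induced against embryonic cells. Ina, the filament alpha-internexin of young neurons, stood at -0.36 ± 0.66 in ES-derived and 0.55 ± 0.81 in induced against embryonic cells, and Synm, a filament protein gene, at -0.98 ± 0.72 and -1.47 ± 0.88. Of 14 cell cycle genes 11 could be tested and 0 were called. The helicase gene Mcm4 stood at -0.44 ± 0.66 and -3.00 ± 0.81 and the centromere gene Cenpa at -0.36 ± 0.64 and -3.15 ± 0.78 (adjusted p = 0.131 and 0.103 in induced cells).

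Of 12 mesenchymal genes 10 could be tested, and 5 were lower in ES-derived and 5 in induced than in embryonic cells, with list medians of -3.09 and -4.09. Over all 9679 features 79 of the 87 calls in ES-derived and 80 of the 123 calls in induced cells were lower than in embryonic cells. Bgn, a matrix proteoglycan gene, stood at -3.63 ± 0.46 and -4.35 ± 0.57, and Col5a1, a collagen gene, at -4.02 ± 0.64 and -5.79 ± 0.79. Bgn was detected on 4 embryonic, 1 ES-derived and 0 induced arrays, and Col5a1 on 4, 3 and 0. Where a gene was not detected, its sizes and calls rest on upper limits, which reach 8.68 on ES-derived GFP-high replicate 1. The listed Col1a1 and Postn were detected on no array. The summed normalised intensity of the 10 genes was 3601 to 7450 on embryonic, 356 to 1203 on ES-derived and 220 to 283 on induced arrays. Nestin is also made by some mesenchymal and muscle cells, and the part of such cells in the embryonic Nes values was not tested.

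**Figure D5:**
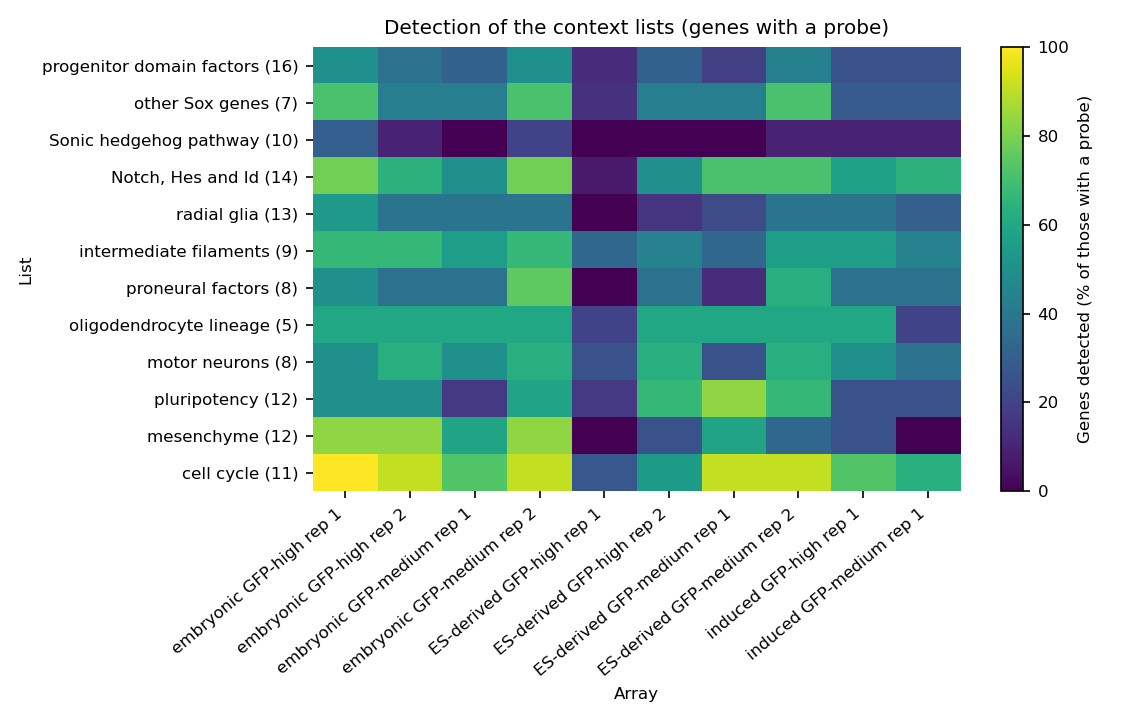
Share of the genes of 12 lists that were detected on each array (colour, percent of the genes with a probe; number of genes in brackets), with arrays in columns. Cell cycle genes were detected at 27.3% on ES-derived GFP-high replicate 1 and 54.5% to 100% on the other arrays, and Sonic hedgehog pathway genes at 0% to 30% throughout.

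The genes whose pattern was most like those of the progenitor genes were taken over the 9 arrays other than ES-derived GFP-high replicate 1, by Pearson correlation of log2 levels with 6933 genes, as a description. All these values share the arrays and their normalisation. For Olig1 they were Psmd8, a proteasome subunit gene (r = 0.96), and Rpl30, a ribosomal protein gene (r = 0.94). For Nes they were Ei24, a gene induced in cell death (r = 0.97), and Abhd8 (r = 0.96). For Sox2 they were Ttk, a mitotic checkpoint kinase gene (r = 0.98), and Large2, a glycosyltransferase gene (r = 0.97). Without the array of highest Sox2 level both of the latter fell to 0.82, whereas for Olig1 and Nes the values without their highest array were 0.93 to 0.97. Among the 9 arrays Ttk read 7.56 on ES-derived GFP-medium replicate 1, the same array on which Sox2 stood apart, and at most 5.02 on the others. Sox9 was detected on 4 of the 9 arrays, too few for this comparison.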

How the data were processed

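Each array was placed in its group, and numbered, by its label. The deposited non-normalized table holds linear probe intensity exported from BeadStudio, per the submitters' processing notes, with background subtracted before deposit, since values reach -27.4. It gives a detection p-value per probe and array, per the file headers. The authors also deposited intensity normalised between arrays (method not given in the sources used here), used only as an alternative. Probes were named from the platform annotation, with 23978 carrying 1 symbol, 0 several and 1719 none.

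Intensities were corrected with normexp from the detection p-values (offset 16), set on the log2 scale and quantile normalised with limma 3.58.1 in R 4.3.3. A probe entered the tests when 2 or more arrays detected it at p under 0.01 (11915 probes), and the brightest kept probe stood for each gene, giving 9679 features. Settings without arrays were renormalised and refiltered. Origin and gate were fitted additively over 10 arrays with limma (lmFit, eBayes, two-sided, 6 residual degrees of freedom), adjusted by Benjamini-Hochberg over all features, with calls under 0.05. Whether the gate difference depended on origin was tested on 6 group means (4 residual degrees of freedom). The script was tested on simulated data. The number of arrays limits precision.

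The members and lists were chosen with earlier results of these data known. The text names all members, up to 4 called genes of a list or its 2 of highest mean where none was called, and the 2 most alike genes per member detected on at least 5 of 9 arrays. Sox5, Mbp, Cnp, Vim, Msi2 and genes detected on no array were named in addition, after their values were seen. Probe sequences were not used here.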

Additional observations from a re-analysis of the deposited data

Results flagged for a closer look

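Nes in the ES-derived cells was set apart by 1 array. GFP-medium replicate 2 read 7.03 on the log2 normalised scale and the other 3 arrays 4.20 to 4.40, none of them detected, so that the gap to the nearest array was 0.927 of the whole range of the 4 arrays. Each gene was checked in this way in embryonic and in ES-derived cells, and chance marks about 1 in 20 groups of measured values. That rate does not hold here, since values that are not detected lie close together at the floor. On ES-derived GFP-high replicate 1 the lowest detected level, 8.68, lay above 7.03, so these arrays cannot be told apart for Nes. GFP-medium replicate 2 also had the highest Olig1 level (11.20) and the highest Sox9 value (5.80) of all arrays. Sox9 was not detected on ES-derived GFP-high replicate 1, whose limit of 8.68 lies above 5.80.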

How the results depend on the processing

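With all 10 arrays 0 progenitor genes were called in each of the 5 comparisons, and with other settings this changed only as follows. Leaving out 1 array at a time gave 0 to 1 called genes for ES-derived against embryonic cells (Olig1, without ES-derived GFP-high replicate 1). Without the 3 dimmest arrays 1 was called (Olig1). Array weights called 1 (Olig1) in ES-derived and 3 (Olig1, Sox9 and Nes) in induced against embryonic cells, and 1 (Olig1) in induced against ES-derived cells, with 550, 3135 and 1581 calls among all features. Olig1 was higher in ES-derived than in embryonic cells under all 20 settings tried (1.81 to 4.24) and in induced than in embryonic cells under all 19 (0.85 to 2.63), and Nes was lower in both (-3.84 to -1.71 and -2.67 to -1.14). Median scaling moved the median of all features for ES-derived minus embryonic cells from -0.13 to -0.58. Relative to that median Olig1 stood at 2.68 with quantile normalisation and 2.89 with median scaling, and Nes at -2.46 and -1.96.

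Values that changed sign were Nes in induced minus ES-derived cells (-0.03 with median scaling, -0.23 with array weights, -0.99 with undetected values at the limit), Sox9 in ES-derived minus embryonic cells (0.85 with undetected values at the limit) and Sox2 in ES-derived minus embryonic cells (-0.18 without the 3 dimmest arrays). The gate difference of Sox9 also changed sign with undetected values at the limit (means of 5.98 in GFP-high and 5.57 in GFP-medium cells). Leaving out 1 array at a time gave ranges that crossed 0 for Sox2 in ES-derived minus embryonic (-0.17 to 1.07) and induced minus embryonic cells (-1.21 to 0.47), for Olig1 in induced minus ES-derived cells (-1.67 to 0.11), and for the origin dependence of the gate difference of Sox2 (-3.34 to 0.23) and Nes (-2.34 to 1.71). The cause was not tested. With the replicate block over the 8 numbered arrays 0 genes were called, and Olig1 stood at 2.48 ± 0.72 for ES-derived minus embryonic cells (adjusted p = 0.285). The labels do not say what the replicate numbers stand for. Deviations of same-numbered arrays correlated between -0.09 and 0.20, which with 2 arrays per group cannot show whether they share a run or preparation. The 3 dimmest arrays, with mean intensities of 3.16, 51.3 and 81.6, all carried number 1. The fit with the block also leaves out the induced arrays. It called 37 features against 87 with all arrays, and the share of the block in this difference was not tested.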
